A study of Mus musculus with 4 samples.

Results

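The 37 genes described here code for the proteins that bring sugars into the cell and break them down: glucose transporters, the enzymes of glycolysis from hexokinase to pyruvate kinase, lactate dehydrogenases, the pyruvate dehydrogenase complex and its kinases, carriers of lactate and pyruvate, the pentose phosphate enzymes and a pair of galactose enzymes. They were chosen by symbol, and all 37 were found among the 55453 rows of the count tables. Mouse embryos had received 1 of 2 morpholinos, antisense oligonucleotides that block the use of an RNA: a control morpholino, or a morpholino against NKX1-2, a homeobox transcription factor. Wells of 2 plates were taken at the morula stage, when the embryo is a compact ball of cells, and wells of 2 other plates at the blastocyst stage, when it has formed a trophectoderm layer around an inner cell mass. The labels used here give no strain, dose or age for any group, and no label tied a well to an embryo, so a group may hold several wells of 1 embryo.

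Each plate held 96 wells, 48 with each morpholino, and the same 96 barcodes were used on all 4 plates. The counts of the 368 of 384 wells with at least 2000 detected genes were added up per plate and morpholino. This gave 8 sums of 1084312 to 2398605 counts, of which the 37 genes held 0.260% to 0.343%. Levels are given below as CPM (a gene's counts scaled to a common library size), normalised between sums by the trimmed mean of M-values (TMM). Differences are given as log2 fold changes with their standard error (SE), and a gene passed a comparison at an adjusted p under 0.05. With 2 plates per stage, p-values of the stage comparisons measure the spread between these plates. Those of the morpholino comparisons measure how the difference within a plate varied between plates, with a spread shared by both stages. Either spread may be technical. Wells that held counts of Xist but of no Y-linked gene (Xist wells below, and the converse Y wells) numbered 25 of 48 control against 10 of 48 NKX1-2 wells on morula plate 1, 27 of 48 against 23 of 47 on morula plate 2, 15 of 43 against 35 of 47 on blastocyst plate 1 and 6 of 43 against 20 of 44 on blastocyst plate 2, so the shares of these classes differed between the morpholinos. Wells with both kinds of counts numbered 4 to 8 per sum on the other plates but 19 of 43 control and 22 of 44 NKX1-2 wells on blastocyst plate 2, where the Y wells numbered 16 and 2, so comparisons within a class leave out many wells there. Trophectoderm markers summed to between 550 and 646 CPM in the morula and between 1000 and 1182 CPM in the blastocyst, markers of the inner cell mass to between 1688 and 1873 CPM and between 647 and 794 CPM, and markers of cumulus cells, which surround the egg, to at most 8.53 CPM, with Has2, Ptx3, Inha and Fshr at 0. Both lineage sets held markers that went against their sum. By stage in control wells, 7 trophectoderm markers passed as higher, while Tead4 (-1.96) and Cldn4 (-2.13) fell. Of the inner cell mass markers 5 passed as lower, while Nanog (1.19) and Zfp42 (0.94) rose. The transcript of Nkx1-2 had 0 counts in all 8 sums, and a morpholino need not lower its target's RNA, so it gives no check of the labels.

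In glycolysis, glucose enters through a transporter, is phosphorylated by a hexokinase and is split and oxidised to pyruvate in a fixed order of steps. Pyruvate is then reduced to lactate by lactate dehydrogenase or enters the mitochondrion through its carrier, where pyruvate dehydrogenase turns it into acetyl-CoA for the citric acid cycle. The early mouse embryo is known to depend on pyruvate and lactate during the first divisions and to take up more glucose as it forms a blastocyst. The pentose phosphate pathway branches off at glucose 6-phosphate and gives NADPH and ribose, and the galactose enzymes feed galactose into the same pool.

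Between the morula and blastocyst plates, most of the tested sugar genes moved, and the transporters, one hexokinase and much of lower glycolysis rose. No plate held both stages, so stage cannot be told apart from differences between plates or in their processing. Gm42418, which is not a member, had 0 CPM in every morula sum. On the blastocyst plates it had 45397.5 and 36119.6 CPM in control sums and 35123.6 and 35819.2 CPM in NKX1-2 sums. A set of rows from U2af1 to V1rg10, with no member among them, had no value on either morula plate. On blastocyst plates 1 and 2 these rows held 1.68% and 1.67% of the counts. The rows that held values thus differed between the stages. Why they differed, and whether the counting of other genes differed between the stages, was not tested. In control wells 28 of the 37 genes had enough counts to be tested, and 11 were higher in the blastocyst, where 20.1% of all 9577 tested genes were higher. Another 6 were lower, where 21.6% of all tested genes were lower. In NKX1-2 wells 13 of 28 were higher, beside 21.9% of all 10221 tested genes, and 7 were lower, beside 24.0%. The median log2 fold change of the tested members was 0.32 in control wells and 0.57 in NKX1-2 wells, beside -0.01 and -0.02 over all tested genes. The genes that passed in both kinds of wells numbered 15, which is 88.2% of the 17 control calls and 75% of the 20 NKX1-2 calls, and all 15 had the same direction in both. Both kinds of wells came from the same plates, so they are not independent of each other. Without blastocyst plate 1, 10 members and 19.5% of all genes passed in NKX1-2 wells, and without each other plate 16 members. Less RNA of a gene per cell and fewer cells that carry it cannot be told apart in such sums. The part of the markers of both embryonic lineages, which moved with stage, in these results was not tested.

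**Figure D1:**
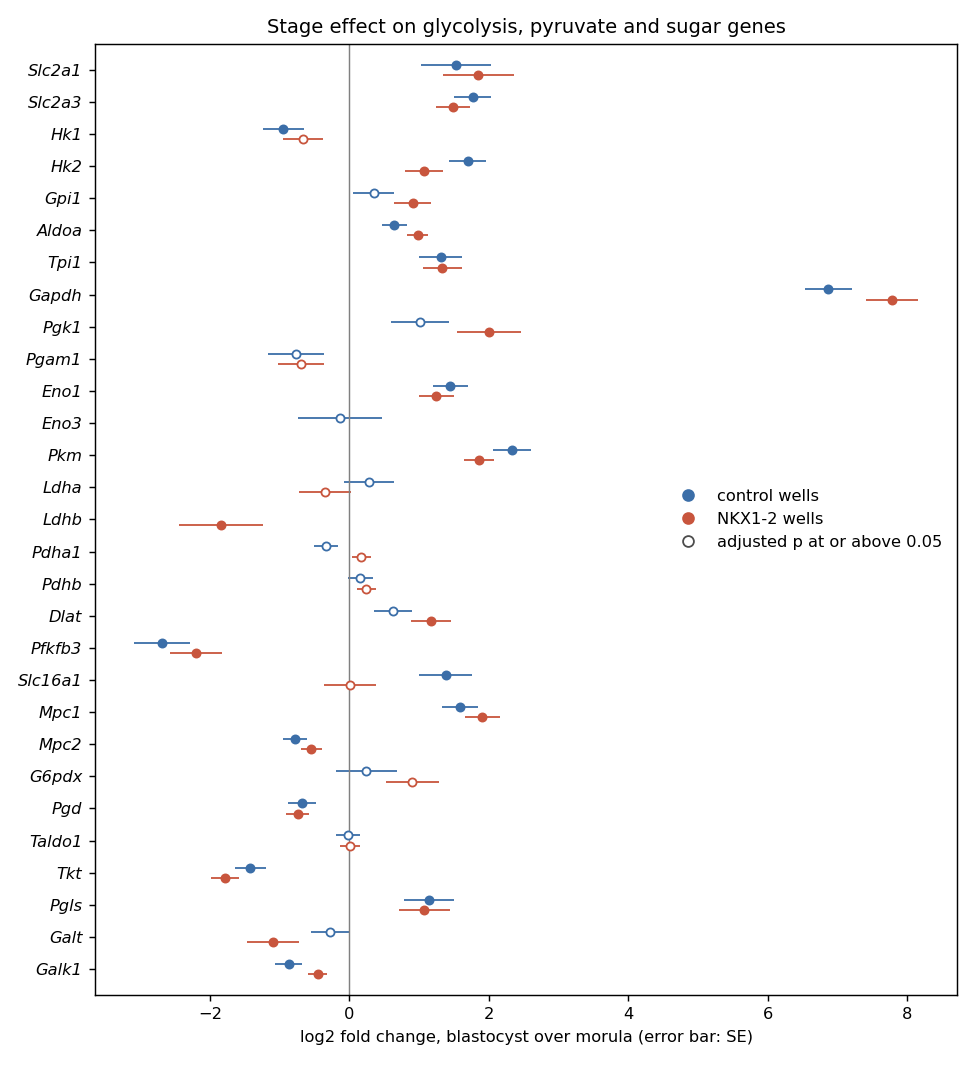
Log2 fold change of each tested gene between blastocyst and morula (x axis, error bar: SE) in control wells (blue) and NKX1-2 wells (red), with genes in pathway order from glucose entry to galactose; open points did not pass. The 10 genes higher in both lie to the right of 0 with filled points, Pfkfb3 lies farthest to the left, and Gapdh lies apart at 6.87 and 7.78, where its counting is uncertain.

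The transporters of glucose were both higher in the blastocyst. Slc2a3, which codes for the high-affinity transporter GLUT3, stood at 26.6 and 25.1 CPM in the control sums of the morula plates and at 76.8 and 97.2 CPM in those of the blastocyst plates. In the NKX1-2 sums it stood at 31.8 and 26.8 CPM in the morula and at 97.2 and 67.5 CPM in the blastocyst. No blastocyst sum overlapped a morula sum. Slc2a3 rose by 1.77 (SE 0.26, adjusted p = 1.04e-05) in control wells and by 1.48 (SE 0.24, adjusted p = 8.74e-05) in NKX1-2 wells. Slc2a1, the transporter GLUT1 that most cells carry, had 4 to 22 counts per sum, and its morula plates differed from each other. Its levels were 2.53 and 10.0 CPM in the control sums and 1.53 and 5.83 CPM in the NKX1-2 sums of the morula, against 19.2 and 16.8 CPM and 14.1 and 12.7 CPM in the blastocyst. It rose by 1.53 (SE 0.50, adjusted p = 0.0179) and 1.85 (SE 0.51, adjusted p = 0.00664). Without morula plate 1 the control value was 0.82 (adjusted p = 0.315) and the NKX1-2 value 1.16 (adjusted p = 0.092), and the NKX1-2 call also ended without blastocyst plate 1 (adjusted p = 0.136) or 2 (adjusted p = 0.0976).

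The hexokinases, which trap glucose in the cell by phosphorylating it, moved in opposite directions. Hk2 stood at 29.6 and 23.7 CPM in the control sums of the morula and at 86.4 and 85.8 CPM in those of the blastocyst, while Hk1 stood at 56.2 and 44.3 CPM in the morula and at 25.6 and 26.0 CPM in the blastocyst. Within control wells the stages did not overlap for either gene. Hk2 rose by 1.70 (SE 0.26, adjusted p = 1.6e-05) and Hk1 fell by 0.95 (SE 0.29, adjusted p = 0.0124), a call that ended without morula plate 1 (-0.79, adjusted p = 0.17). In NKX1-2 wells Hk2 stood at 24.1 and 42.8 CPM in the morula and at 83.1 and 58.2 CPM in the blastocyst, and rose by 1.07 (SE 0.27, adjusted p = 0.00396). That value was 0.69 without morula plate 1 (adjusted p = 0.0733) and 0.82 without blastocyst plate 1 (adjusted p = 0.178). Hk1 stood at 42.5 and 36.9 CPM in the morula and at 18.02 and 31.4 CPM in the blastocyst of NKX1-2 wells, a difference of -0.66 that did not pass (SE 0.29, adjusted p = 0.0726).

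As a share of the counts of both hexokinases, Hk2 took 34.5% in the control wells of morula plate 1, with a 95% exact binomial interval of 28.0% to 41.5%. It took 34.9% on morula plate 2 (27.3% to 43.1%), and 77.1% (67.9% to 84.8%) and 76.7% (69.0% to 83.3%) on the blastocyst plates. In NKX1-2 wells the share was 36.2% and 53.7% in the morula and 82.2% and 64.9% in the blastocyst. The control intervals of the stages lay far apart, and the NKX1-2 shares of the second plates came closest to each other. These intervals, here and below, cover counting error only. Per exon length the share of Hk2 was 42.9% and 43.4% in control wells of the morula and 82.8% and 82.5% in those of the blastocyst, so Hk1 was the more abundant transcript of the morula and Hk2 that of the blastocyst in control wells on this scale too.

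The promoters of the hexokinases are shown because their transcripts went in opposite directions. Each line below gives the 250 bases before the start of the RefSeq transcript (table of build GRCm38.p6) that lies nearest to the annotated gene start, read 5′ to 3′ along the gene. Hk1 lies on the minus strand (chr10:62379909-62380158) and so does Hk2 (chr6:82774455-82774704). Capitals mark the core of the hypoxia response element, ACGTG or GCGTG, on either strand, so that CACGT and CACGC are marked as well.
Hk1: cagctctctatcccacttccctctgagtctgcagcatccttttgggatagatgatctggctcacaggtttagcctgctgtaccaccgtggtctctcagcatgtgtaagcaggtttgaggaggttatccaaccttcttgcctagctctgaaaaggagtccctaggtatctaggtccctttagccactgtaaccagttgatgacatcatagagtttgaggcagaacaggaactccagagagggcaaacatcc
Hk2: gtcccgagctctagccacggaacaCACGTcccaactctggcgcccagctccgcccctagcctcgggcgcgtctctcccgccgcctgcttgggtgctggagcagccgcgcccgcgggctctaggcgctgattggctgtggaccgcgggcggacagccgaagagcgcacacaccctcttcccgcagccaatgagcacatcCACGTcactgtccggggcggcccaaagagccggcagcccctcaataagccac
The printed Hk1 sequence holds no match and has a GC content of 49.6%, and the Hk2 sequence holds 2 matches and has a GC content of 69.6%. The table lists another start for Hk1, and the 250 bases before that start do hold the core. Counting every start of a gene that the table lists, 33 of the 36 members with an entry (91.7%), Hk1 among them, held the core. The share was 41.5% of all 27025 genes in the table. Among genes tested in the morpholino comparisons the share was 62.7% of 7322 genes, and 26 of 29 members (89.7%). The median GC content of these windows was 61.4% for the members, 60% for the tested genes and 52.4% for all genes. All 5 genes that were lower in both stage comparisons held it, as did 8 of the 9 with an entry that were higher in both, so genes of both directions held it. The promoter table has no entry for Slc2a3.

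Further down glycolysis, Aldoa, Tpi1, Eno1 and Pkm were higher in the blastocyst in both kinds of wells, as was Gapdh, treated below. Gpi1 and Pgk1 passed as higher in NKX1-2 wells alone. Aldoa, the aldolase that splits the phosphorylated sugar, stood at 223 and 199 CPM in the control sums of the morula and at 305 and 349 CPM in those of the blastocyst, and at 243 and 189 CPM against 407 and 445 CPM in NKX1-2 wells. It rose by 0.64 (SE 0.18, adjusted p = 0.0061) in control wells, a call that ended without morula plate 2 (0.53, adjusted p = 0.144), and by 0.98 (SE 0.15, adjusted p = 5.38e-05) in NKX1-2 wells. Aldoc, the aldolase known from brain, had 0 or 1 count per sum, so Aldoa held at least 99.8% of the aldolase counts. Tpi1, the isomerase that interconverts the products of aldolase, stood at 15.6 to 19.0 CPM in the 4 morula sums and at 41.5 to 46.7 CPM in the 4 blastocyst sums. Its groups did not overlap, and it rose by 1.31 (SE 0.31, adjusted p = 0.00155) and 1.33 (SE 0.28, adjusted p = 0.000835). Gpi1, which turns glucose 6-phosphate into fructose 6-phosphate, stood at 24.9 and 24.9 CPM in the NKX1-2 sums of the morula and at 41.5 and 51.5 CPM in those of the blastocyst. It rose there by 0.91 (SE 0.26, adjusted p = 0.00841, and 0.0979 without blastocyst plate 2), while in control wells, at 37.2 and 31.03 against 32.0 and 52.8 CPM, the difference of 0.35 did not pass (SE 0.30, adjusted p = 0.362).

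Pkm, the pyruvate kinase of most tissues outside liver and red blood cells, rose the most of the members other than Gapdh in control wells. Its sums held 24.1 and 24.2 CPM in control wells of the morula and 90.6 and 148 CPM in those of the blastocyst. In NKX1-2 wells they held 29.5 and 27.6 CPM against 114 and 93.6 CPM. The stages did not overlap, and the rises were 2.33 (SE 0.27, adjusted p = 3.88e-07) and 1.86 (SE 0.22, adjusted p = 2.38e-06). Pgk1, the X-linked phosphoglycerate kinase, had only 7 to 27 counts per sum. It stood at 9.72 and 8.21 CPM against 14.9 and 20.7 CPM in control wells, a difference of 1.01 that did not pass (SE 0.41, adjusted p = 0.0503). In NKX1-2 wells it stood at 4.6 and 2.72 against 17.2 and 12.7 CPM and rose by 2.00 (SE 0.46, adjusted p = 0.00163, and 0.0661 without blastocyst plate 1). Pgam1, the phosphoglycerate mutase, stood lower in the blastocyst, with 21.1 to 24.1 CPM in the morula and 7.46 to 17.6 CPM in the blastocyst. Its differences of -0.76 (SE 0.40, adjusted p = 0.135) and -0.70 (SE 0.33, adjusted p = 0.096) did not pass.

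Eno1, the enolase of most tissues, stood at 34.6 and 35.1 CPM in the control sums of the morula and at 87.4 and 101 CPM in those of the blastocyst. In the NKX1-2 sums it stood at 23.4 and 22.9 CPM against 58.0 and 52.2 CPM. Its stages did not overlap, and it rose by 1.45 (SE 0.25, adjusted p = 5.83e-05) and 1.25 (SE 0.25, adjusted p = 0.000585). Eno3, the enolase known from muscle, had 3 to 15 counts per sum and stood at 1.53 to 8.53 CPM. Its difference in control wells was -0.13 (SE 0.60, adjusted p = 0.882), and it was not tested in NKX1-2 wells.

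The rise of Gapdh, the dehydrogenase that links glycolysis to NADH, is uncertain in size. Its own row had 4 and 5 counts in the control sums and 2 and 1 in the NKX1-2 sums of the morula, and 195, 348, 192 and 198 counts in the corresponding blastocyst sums. The fitted rises were 6.87 (SE 0.34, adjusted p = 6.31e-14) and 7.78 (SE 0.38, adjusted p = 8.09e-12). For 43 other genes at least 50% of the sequence lies within Gapdh transcripts, and these copies held 70.6% to 93.8% of the joint counts in the morula but 6.25% to 12.7% in the blastocyst. Added to their copies, the Gapdh counts rose by 4.82 (SE 0.27) in control wells and by 4.21 (SE 0.30) in NKX1-2 wells. How reads that match several genes were counted is not given in the sources used here.

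Lactate dehydrogenase, which converts pyruvate and lactate, is a tetramer of the A and B subunits. Ldha differed between the plates of a stage, with 39.3 and 21.9 CPM in control wells of the morula and 22.4 and 49.8 CPM in those of the blastocyst, and with 41.0 and 17.5 against 19.6 and 26.1 CPM in NKX1-2 wells. Its stages overlapped and it passed in neither comparison (0.29, SE 0.36, adjusted p = 0.548, and -0.35, SE 0.37, adjusted p = 0.466). Ldhb had 11 to 21 counts in each morula sum and 1 to 5 in each blastocyst sum. In NKX1-2 wells it stood at 7.67 and 8.16 CPM against 0.784 and 3.34 CPM and fell by 1.84 (SE 0.60, adjusted p = 0.0184), a call that ended without morula plate 1 (-1.92, adjusted p = 0.107), morula plate 2 (-1.84, adjusted p = 0.14) or blastocyst plate 1 (-1.21, adjusted p = 0.177). In control wells, at 4.65 and 8.21 against 4.26 and 0.766 CPM, it was not tested.

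Pfkfb3, which makes fructose 2,6-bisphosphate, the strongest activator of phosphofructokinase, fell the most of the tested members. It stood at 41.8 and 46.5 CPM in control wells and at 46.8 and 58.7 CPM in NKX1-2 wells of the morula, and at 9.60 and 4.59 CPM and 4.70 and 17.4 CPM in the blastocyst. Every morula sum lay above every blastocyst sum. It fell, with differences of -2.68 (SE 0.40, adjusted p = 1.18e-05) in control wells and -2.20 (SE 0.37, adjusted p = 0.000135) in NKX1-2 wells. In the morula, 79.2% to 95.7% of the wells of a sum held a count of Pfkfb3, and in the blastocyst 9.30% to 34.1%. With every well thinned to 10000 counts, which left out 3 shallower wells, these shares were 25.5% to 51.1% and 2.13% to 9.52%. Its relative Pfkfb4 had 2 to 9 counts per sum, from 0.778 to 1.53 CPM in the morula and 4.26 to 6.89 CPM in the blastocyst, and was tested in neither stage comparison. Pfkfb3 thus made up 96.8% to 98.7% of the counts of both genes in the morula and 40% to 76.5% in the blastocyst, where each sum rested on 13 to 34 counts.

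The phosphofructokinases themselves, which catalyse the committed step of glycolysis, were near the detection limit. Pfkl had 1 to 8 counts per sum, Pfkp 0 to 9 and Pfkm 0 to 3. A sum with 0 counts allows up to 3 counts, or 1.15 to 3.2 CPM. The same held for the pyruvate dehydrogenase kinases Pdk1, with 0 to 4 counts, and Pdk3, with 0 to 10, and for the lactate exporter Slc16a3, with 0 to 10. With Aldoc, these 7 genes were removed by the filter on low counts. In fits without that filter their smallest adjusted p was 0.0589, for Pfkp by stage in control wells (-5.11, SE 1.99), so no change in them was detectable at this depth.

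Pyruvate entry and use split by subunit. The mitochondrial pyruvate carrier is a complex of MPC1 and MPC2, and its genes moved in opposite directions. Mpc2 stood at 499 and 524 CPM in control wells of the morula and at 280 and 312 CPM in those of the blastocyst, and at 545 and 546 against 321 and 425 CPM in NKX1-2 wells. It fell, with differences of -0.78 (SE 0.17, adjusted p = 0.000739) and -0.54 (SE 0.15, adjusted p = 0.00549, and 0.119 without blastocyst plate 1). Mpc1 stood at 26.2 and 30.1 CPM against 90.6 and 78.1 CPM in control wells and at 19.9 and 29.9 against 79.9 and 106 CPM in NKX1-2 wells. It rose by 1.59 (SE 0.26, adjusted p = 3.45e-05) and 1.91 (SE 0.25, adjusted p = 8.08e-06). Another gene that copies Mpc1, Mpc1-ps, held 54.7% to 64.9% of their joint counts in the morula and 10.5% to 15.4% in the blastocyst. With both added, the rise was 0.51 in control wells, which did not pass (SE 0.24, adjusted p = 0.0844), and 0.71 in NKX1-2 wells (SE 0.21, adjusted p = 0.0115). The direction stayed, and the size depends on to which of the 2 genes the reads belong.

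**Figure D2:**
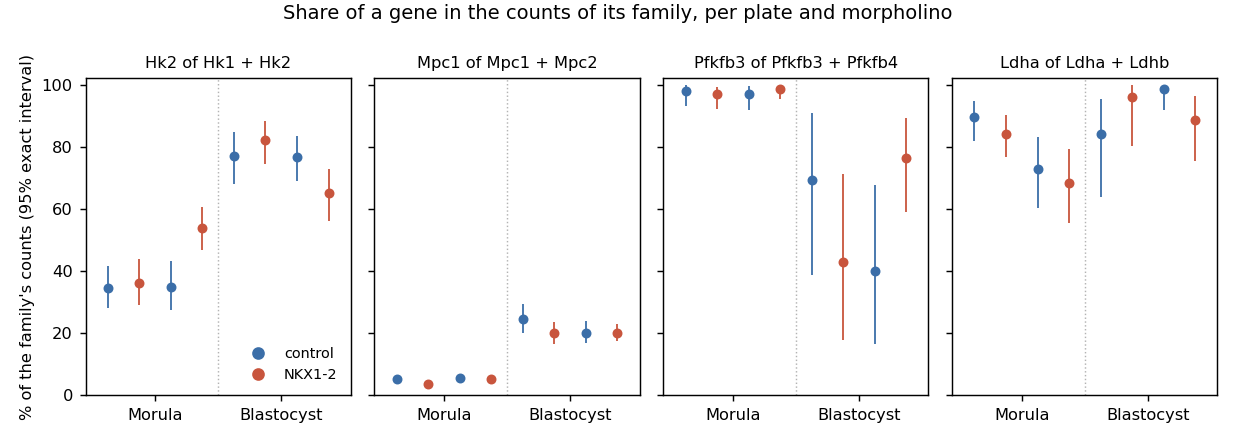
Share of 1 gene in the counts of its family (y axis, percent, with the 95% exact binomial interval) in each of the 8 sums, control wells in blue and NKX1-2 wells in red, morula to the left of the dotted line. Hk2 goes from 34.5% to 53.7% in the morula to 64.9% to 82.2% in the blastocyst, Mpc1 from at most 5.43% to at least 19.9%, while Ldha shares overlap.

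In pyruvate dehydrogenase, the E1 subunits did not pass between stages and the E2 subunit did in NKX1-2 wells. The E1 subunits Pdha1 and Pdhb stood at 282 to 462 CPM and 286 to 401 CPM over all 8 sums and passed in neither stage comparison. Their differences were between -0.34 and 0.24, with SE of 0.14 to 0.18. Dlat, the E2 subunit, stood at 22.6 and 27.2 CPM against 72.1 and 40.8 CPM in NKX1-2 wells and rose by 1.17 (SE 0.28, adjusted p = 0.00271). That value was 0.73 without blastocyst plate 1 (adjusted p = 0.123). In control wells Dlat stood at 32.1 and 42.0 against 60.8 and 52.8 CPM, a difference of 0.62 that did not pass (SE 0.27, adjusted p = 0.0672). Slc16a1, the transporter MCT1 that carries lactate and pyruvate across the cell membrane, stood at 11.4 and 8.67 CPM against 29.9 and 23.0 CPM in control wells and rose by 1.38 (SE 0.38, adjusted p = 0.0054, and 0.0913 without morula plate 2). In NKX1-2 wells it stood at 15.3 and 11.3 against 14.1 and 12.7 CPM, a difference of 0.01 (SE 0.37, adjusted p = 0.989). The test of the difference between these effects did not pass (-1.37, SE 0.47, adjusted p = 0.58).

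In the pentose phosphate pathway, the genes went different ways. Tkt, the transketolase of its non-oxidative arm, stood at 148 to 166 CPM in the 4 morula sums and at 43.5 to 62.9 CPM in the 4 blastocyst sums, with no overlap. It fell, with differences of -1.42 (SE 0.22, adjusted p = 1.95e-05) and -1.78 (SE 0.20, adjusted p = 9.01e-07). Pgd, the dehydrogenase of 6-phosphogluconate, stood at 182 to 254 CPM against 100 to 157 CPM and fell, with differences of -0.68 (SE 0.20, adjusted p = 0.0104) and -0.74 (SE 0.16, adjusted p = 0.00128). Its control call ended without morula plate 1 (adjusted p = 0.105) or blastocyst plate 1 (adjusted p = 0.0598), and its NKX1-2 call without blastocyst plate 1 (adjusted p = 0.0642). Pgls, the lactonase between the oxidative steps, had 21 to 38 counts per sum and stood at 8.05 to 14.1 CPM against 18.7 to 29.1 CPM. It rose by 1.14 (SE 0.36, adjusted p = 0.0139) and 1.08 (SE 0.37, adjusted p = 0.0228), and its adjusted p exceeded 0.05 in 7 of the 8 fits that leave out 1 plate. The exception was the control fit without blastocyst plate 1. Taldo1, the transaldolase, stood at 277 to 352 CPM over all sums with differences of -0.03 and 0.01 (SE 0.17 and 0.14). G6pdx, the X-linked enzyme that opens the pathway, had 11 to 28 counts per sum, and its differences of 0.24 (SE 0.44, adjusted p = 0.683) and 0.91 (SE 0.38, adjusted p = 0.062) did not pass.

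Both galactose enzymes were lower in the blastocyst where they passed. Galk1, the galactokinase, stood at 483 and 626 CPM against 241 and 358 CPM in control wells and at 462 and 542 against 355 and 376 CPM in NKX1-2 wells. It fell, with differences of -0.87 (SE 0.19, adjusted p = 0.0011) and -0.45 (SE 0.14, adjusted p = 0.0115), the latter not without morula plate 2 (adjusted p = 0.0919) or either blastocyst plate (adjusted p = 0.13 and 0.0694). Per kilobase of exon, Galk1 was the most abundant member in all 4 groups, at 394 CPM per kilobase (SD 72.0, n = 2) in control wells of the morula. It was followed there by Taldo1 at 157 (SD 5.96) and Pdha1 at 106 (SD 1.28). In control wells of the blastocyst Pdhb at 90.4 (SD 6.93), Aldoa at 88.2 (SD 8.43) and Pdha1 at 83.4 CPM per kilobase (SD 10.9) differed by less than their spread. The promoter of Galk1 (minus strand, chr11:116012720-116012969) is shown because it holds the E-box CACGTG, a palindrome that contains the hypoxia core on both strands and that the members' promoters held in 6 of 36 cases (16.7%), beside 6.86% of all genes and 10.2% of the tested genes.
Galk1: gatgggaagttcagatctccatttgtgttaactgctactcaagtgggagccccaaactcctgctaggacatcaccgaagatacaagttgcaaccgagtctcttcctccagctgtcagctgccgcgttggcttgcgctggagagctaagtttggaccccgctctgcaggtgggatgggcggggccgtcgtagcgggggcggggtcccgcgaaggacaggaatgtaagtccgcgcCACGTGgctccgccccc
Galt, the uridylyltransferase that follows Galk1 in the pathway, stood at 47.3 and 39.7 CPM in control wells of the morula and at 32.0 and 39.0 CPM in those of the blastocyst, a difference of -0.27 (SE 0.28, adjusted p = 0.467). In NKX1-2 wells it stood at 19.2 and 26.1 against 13.3 and 8.03 CPM and fell by 1.09 (SE 0.37, adjusted p = 0.0225). That call ended without morula plate 2 (adjusted p = 0.151), blastocyst plate 1 (adjusted p = 0.067) or blastocyst plate 2 (adjusted p = 0.206).

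Where genes have copies, stage values are less certain. Of the 30 members that were tested in any comparison, 13 had less than 10% of their 31-base stretches in another gene. Of these, 10 passed the stage comparison in control wells and 9 in NKX1-2 wells. Of the other 17 members, 7 and 11 passed. In a fit of rows with less than 10% shared sequence, 12 members were tested and 10 passed in each kind of wells, beside 37.8% of all genes in control and 44.3% in NKX1-2 wells. In control wells 11 of the 17 stage calls passed without each of the 4 plates in turn (Slc2a3, Hk2, Tpi1, Gapdh, Eno1, Pkm, Pfkfb3, Mpc1, Mpc2, Tkt and Galk1). In NKX1-2 wells 9 of the 20 did (Slc2a3, Aldoa, Tpi1, Gapdh, Eno1, Pkm, Pfkfb3, Mpc1 and Tkt).

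The NKX1-2 morpholino was compared with the control morpholino within each plate, and few sugar genes passed. Of 30 tested members, 0 passed in the morula, 1 in the blastocyst and 2 in the average over the stages, while 0.552%, 0.727% and 2.90% of all 10873 tested genes passed. None passed the test of a difference between the stages, which 0.0184% of all genes passed. At an unadjusted p under 0.05 there were 6, 9, 10 and 3 members, beside 10.7%, 13.7%, 16.6% and 6.43% of all tested genes. DESeq2 passed 0 in each of these comparisons. In the morula, in the blastocyst and on average it gave several members no adjusted p, so these could not pass. Galt on average was among them (-1.36, unadjusted p = 0.000342 with DESeq2). Without blastocyst plate 1, 3 members passed in the morula, 7 in the blastocyst, 7 for the average and 1 between stages, while the share of all genes that passed also went up, to 6.94%, 4.71%, 8.40% and 2.10%. Without blastocyst plate 2 the numbers were 3, 2, 3 and 1, beside 7.03%, 5.32%, 8.98% and 2.06% of all genes. Without either morula plate they were 0, 1, 1 and 0. In these fits the stage with a single plate left had no replicate, and the spread came from the plates of the other stage. The median log2 fold change of the members was -0.11 in the morula, -0.08 in the blastocyst and -0.07 on average, with the median of all genes between -0.01 and 0. The members that passed were the galactose enzyme Galt and the enolase Eno1, and both were lower with the NKX1-2 morpholino on all 4 plates.

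**Figure D3:**
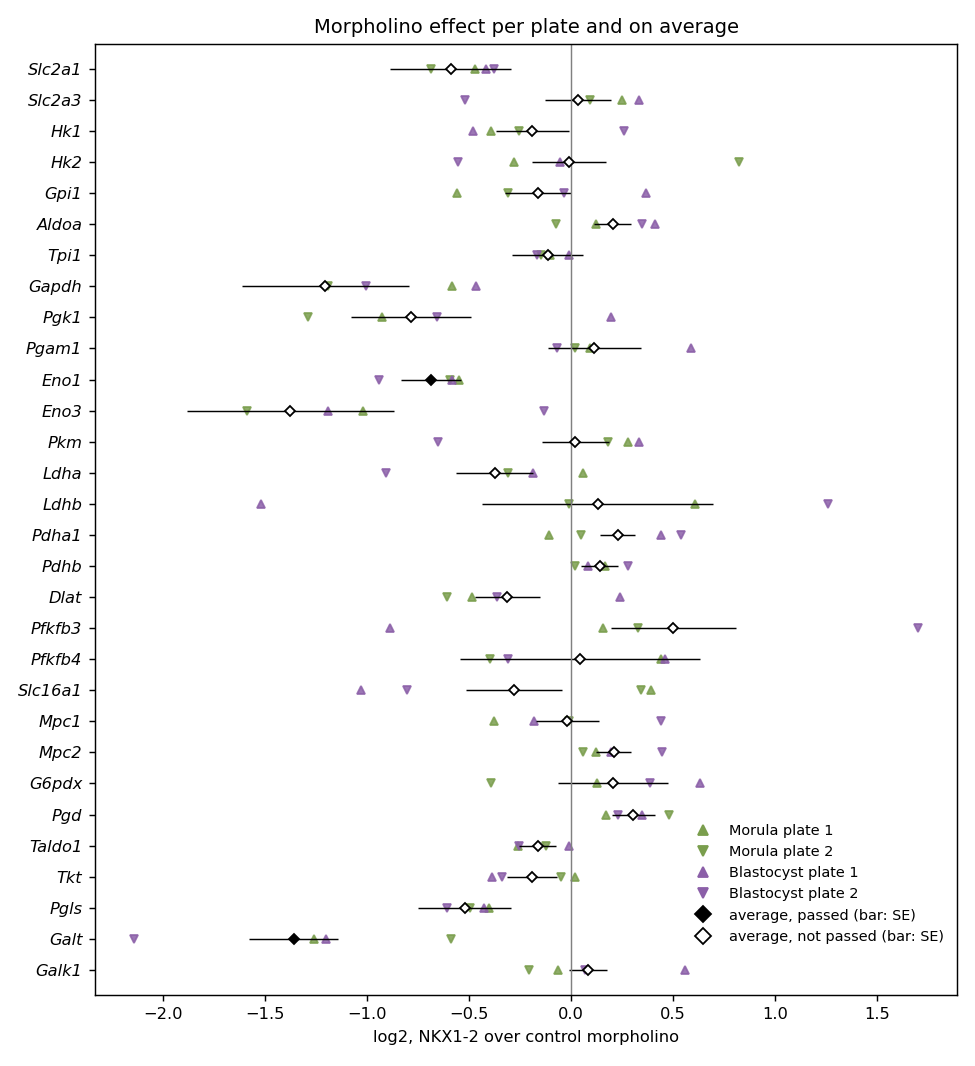
Log2 difference between NKX1-2 and control wells for each of the 30 tested genes, on every plate (triangles, green for morula and purple for blastocyst, computed with a prior count of 2) and as the fitted average (diamond with SE, filled where it passed). The 4 plates of Galt lie between -0.59 and -2.14 and those of Eno1 between -0.55 and -0.94, while most other genes lie on both sides of 0.

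Galt (chr4:41755228-41758695, plus strand, GRCm38) showed the largest change of those that passed. In the morula it went from 47.3 CPM in control wells to 19.2 CPM in NKX1-2 wells on plate 1 and from 39.7 to 26.1 CPM on plate 2. In the blastocyst it went from 32.0 to 13.3 CPM and from 39.0 to 8.03 CPM. All 4 NKX1-2 sums lay below all 4 control sums. It fell, with differences of -1.77 (SE 0.35, adjusted p = 0.0276) in the blastocyst and -1.36 (SE 0.22, adjusted p = 0.00299) on average, while the difference of -0.95 in the morula did not pass (SE 0.25, adjusted p = 0.117). The effects at the 2 stages did not differ by test (-0.82, SE 0.44, adjusted p = 0.794).

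These Galt values rest on 12 to 112 counts per sum. A count of Galt was found in 81.2% and 66.7% of control wells and in 60.4% and 66.0% of NKX1-2 wells of the morula plates. In the blastocyst it was found in 48.8% and 58.1% of control wells and in 27.7% and 20.5% of NKX1-2 wells. Thinned to 10000 counts per well, the shares were 41.7% and 33.3% against 19.1% and 27.7% in the morula, and 28.6% and 27.9% against 10.6% and 9.30% in the blastocyst. The thinned share was lower with the NKX1-2 morpholino on every plate, although the exact intervals of each plate overlapped. With the highest well of each sum left out, the blastocyst value was -1.82 (adjusted p = 0.0319).

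The blastocyst call of Galt ended without blastocyst plate 2 (-1.26, adjusted p = 0.0759), with limma voom (-1.75, adjusted p = 0.0624) and with DESeq2 (-1.77, adjusted p = 0.223). It also ended within wells of 1 sex class, at -1.45 (adjusted p = 0.478) in Xist wells and -1.44 (adjusted p = 0.718) in Y wells. On average over the stages the value was -1.36 (adjusted p = 0.0974) in Xist wells and -1.10 (adjusted p = 0.405) in Y wells, and DESeq2 gave no adjusted p for that comparison.

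**Figure D4:**
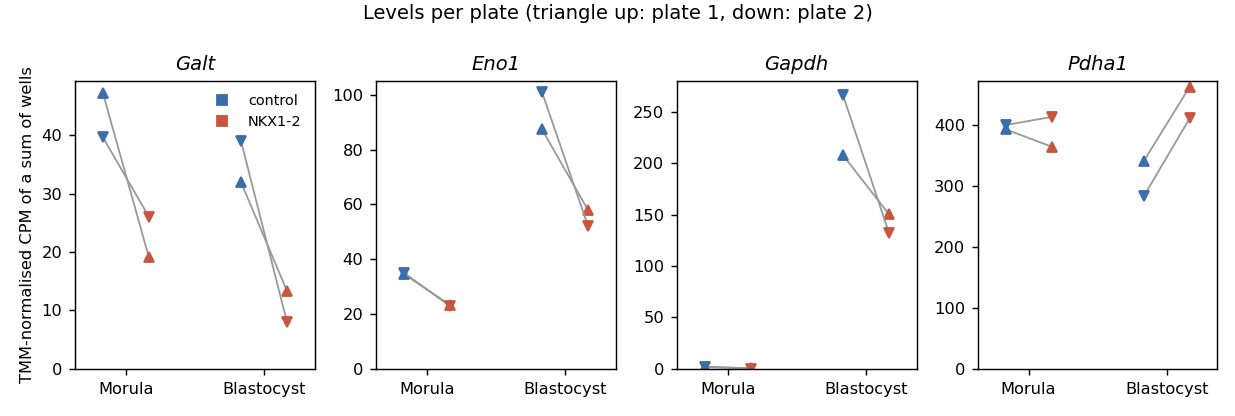
TMM-normalised CPM (y axis, from 0) of 4 genes in control (blue) and NKX1-2 (red) sums, with a line joining the sums of 1 plate. Galt and Eno1 go down on all 4 plates, Gapdh from 208 and 266 to 151 and 132 CPM in the blastocyst, and Pdha1 up on both blastocyst plates but in both directions on the morula plates.

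Eno1 (chr4:150236721-150248879, plus strand) fell by 0.69 on average (SE 0.15, adjusted p = 0.0199). On the morula plates it went from 34.6 to 23.4 CPM and from 35.1 to 22.9 CPM, and on the blastocyst plates from 87.4 to 58.0 CPM and from 101 to 52.2 CPM. Within each stage the NKX1-2 sums lay below the control sums. Taken by stage the differences were -0.59 (SE 0.21, adjusted p = 0.288) and -0.78 (SE 0.20, adjusted p = 0.0862), and neither passed. The average call ended without morula plate 1 (adjusted p = 0.199) or 2 (adjusted p = 0.238), where the value was -0.69 and -0.65, with DESeq2 (-0.68, adjusted p = 0.324) and within each sex class (-0.70, adjusted p = 0.46, and -0.64, adjusted p = 0.407). It passed with the copies of Eno1 added (-0.67, adjusted p = 0.0179). Within a sex class, plain CPM of Eno1 did not fall on every plate. In Xist wells of blastocyst plate 1 it went from 32.1 to 51.2, and in Y wells of morula plate 1 from 30.3 to 35.1. On the other plates of each class it was lower with the NKX1-2 morpholino, at as few as 5 counts in a sum. The 250 bases before its start (plus strand, chr4:150236458-150236707) are given because Eno1 is the gene that both rose with stage and fell with the morpholino, and they hold 1 match of the hypoxia core.
Eno1: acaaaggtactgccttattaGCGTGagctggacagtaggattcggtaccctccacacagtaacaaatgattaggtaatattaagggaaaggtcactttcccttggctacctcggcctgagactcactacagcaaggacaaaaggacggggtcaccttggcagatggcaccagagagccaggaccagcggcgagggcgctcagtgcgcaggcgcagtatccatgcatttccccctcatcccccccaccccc
Its muscle relative Eno3 was also lower on all 4 plates, from 4.22 and 6.84 to 1.53 and 1.56 CPM in the morula and from 8.53 and 2.30 to 3.13 and 2.01 CPM in the blastocyst, at 3 to 15 counts. The average difference was -1.37 and did not pass (SE 0.51, adjusted p = 0.17).

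Of the 30 tested members, 8 (26.7%) were lower on all 4 plates and 3 (10.0%) higher, beside 11.8% and 12.2% of all tested genes. Of these, Galt and Eno1 passed. Slc2a1, Tpi1, Gapdh, Taldo1 and Pgls were lower on all 4, with average differences of -0.59, -0.11, -1.20, -0.16 and -0.52. Pdhb, Mpc2 and Pgd were higher, by 0.14, 0.21 and 0.31. For Gapdh the blastocyst counts were large enough to compare: the sums went from 208 to 151 CPM and from 266 to 132 CPM, a difference of -0.75 (SE 0.18, adjusted p = 0.0635). It passed in wells with at least 4000 genes (-0.81, adjusted p = 0.0316). Without blastocyst plate 1 it was -1.001 and without plate 2 it was -0.47, each resting on a single blastocyst plate. In Xist wells it was 0.02 and in Y wells -0.99 (adjusted p = 0.268). In the morula Gapdh rested on 1 to 5 counts per sum.

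Several other members had an unadjusted p under 0.05 within a stage and did not pass. In the blastocyst Slc16a1 went from 29.9 and 23.0 CPM in control to 14.1 and 12.7 CPM in NKX1-2 wells, without overlap, at 18 to 30 counts per sum (-0.96, SE 0.34, adjusted p = 0.212). Aldoa went from 305 and 349 to 407 and 445 CPM there, also without overlap (0.38, SE 0.13, adjusted p = 0.192). In the morula Pgk1 went from 9.72 and 8.21 to 4.6 and 2.72 CPM (-1.28, SE 0.44, adjusted p = 0.255), and Dlat from 32.1 and 42.0 to 22.6 and 27.2 CPM (-0.57, SE 0.22, adjusted p = 0.332).

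The X-linked subunit Pdha1 had the smallest p of the members that were higher with the NKX1-2 morpholino in the blastocyst. It went from 340 to 462 CPM on plate 1 and from 282 to 411 CPM on plate 2, a difference of 0.49 that did not pass (SE 0.12, adjusted p = 0.0816). Without blastocyst plate 1 the difference was 0.55 and without plate 2 it was 0.44, each resting on a single blastocyst plate. The NKX1-2 sums of these plates held more Xist wells, 35 of 47 against 15 of 43 on plate 1 and 20 of 44 against 6 of 43 on plate 2. Within Xist wells the difference was 0.30 (adjusted p = 0.765), and within Y wells it was 0.13 (adjusted p = 0.935). Plain CPM of Pdha1 went from 433 to 480 and from 355 to 525 in Xist wells of blastocyst plates 1 and 2. In Y wells it went from 177 to 215 and from 206 to 244. The part of the sex classes in the difference was not tested. In the morula the difference was -0.03 (SE 0.12, adjusted p = 0.971). Pdhb, the autosomal partner subunit, differed by 0.10 and 0.19 at the 2 stages (SE 0.12 and 0.13).

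In blastocyst wells, members varied with the share of trophectoderm markers in a well, which marks how far a well resembles the outer layer. Wells of each plate and morpholino were ranked by that share, and CPM, here without TMM, was compared between the 14 or 15 wells with the highest share (marker-rich wells) and the 14 or 15 with the lowest (marker-poor wells). These are ranges of a share and not cell types, and up to 9 wells of a sum lay within 10% of a boundary value. Of 25 members with at least 50 counts, 12 were higher in the marker-rich wells of all 4 sums, 1 was lower in all 4 and 12 went both ways. Of all 6182 genes outside the marker list with as many counts, 13.9% were higher and 8.8% lower in all 4 sums. Slc2a3 had the largest ratio, with 27.9 to 46.9 CPM in the marker-poor and 104 to 162 CPM in the marker-rich wells, a log2 ratio of 1.84 between the mean levels. Eno1 followed with 23.1 to 67.0 against 80.0 to 140 CPM (1.42), and Hk2 with 30.8 to 65.2 against 82.5 to 121 CPM (1.05) was also higher in every sum. Mpc2 was the gene that was lower, with 291 to 400 against 181 to 290 CPM (-0.41). Galt was higher in the marker-rich wells of all 4 sums, with 5.77 to 33.5 against 15.8 to 48.3 CPM (0.68). These are descriptions with no test. Median counts per well were 21968, 30453, 30744 and 36944 in the marker-poor wells and 26838, 30421, 35406 and 42206 in the marker-rich wells, so the latter were deeper in 3 of 4 sums. Over whole sums the trophectoderm markers summed to 1000 and 1047 CPM in control and to 1182 and 1166 CPM in NKX1-2 wells of the blastocyst. Of 13 tested markers, 1 passed as higher with the NKX1-2 morpholino in the morula and 2 on average. Of all tested genes, 0.552% and 2.90% passed these comparisons in either direction. Gata3 went from 9.29 and 5.48 to 23.0 and 32.3 CPM in the morula (1.87, SE 0.35, adjusted p = 0.0278; average 1.21, SE 0.22, adjusted p = 0.00944), and Fabp3 differed by 0.45 on average (SE 0.12, adjusted p = 0.0489). The part of these markers in the morpholino results was not tested.

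**Figure D5:**
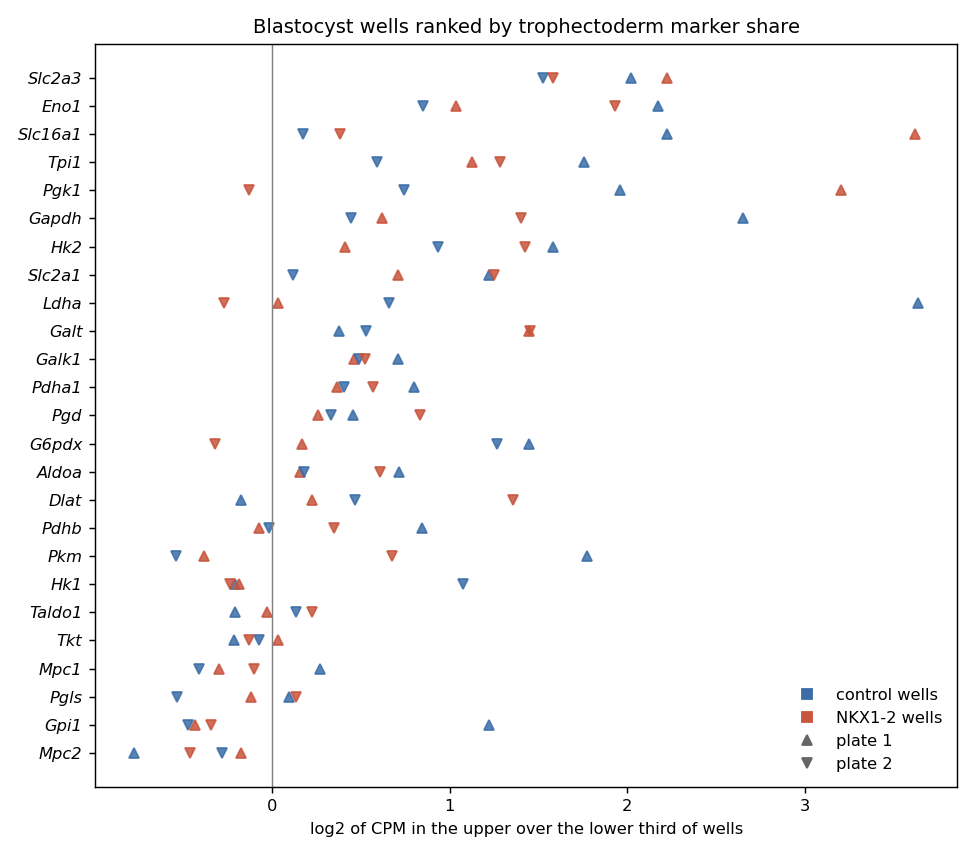
Log2 ratio of CPM between marker-rich and marker-poor blastocyst wells, ranked by trophectoderm marker share (x axis), for the 25 members with at least 50 counts, with 1 symbol per plate and morpholino. Slc2a3, at the top, lies to the right of 0 in all 4 sums and Mpc2, at the bottom, to the left in all 4.

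Other genes of these pathways, taken from lists by pathway, are given for comparison. By stage, 20.1% of all tested genes were higher and 21.6% lower in control wells, and 21.9% and 24.0% in NKX1-2 wells. The counts of each list stand beside these shares. Among 75 further sugar genes, 34 were tested for stage in control wells, with 5 higher and 6 lower. The largest rises were those of Prps2 (3.4), a synthetase of phosphoribosyl pyrophosphate, Eno1b (1.28), which shares sequence with Eno1, and Fbp2 (1.16), a fructose bisphosphatase, and the largest falls those of Eno2 (-2.70), the enolase of neurons, Pck2 (-1.67), the mitochondrial PEP carboxykinase, and Gfpt1 (-1.54), which opens hexosamine synthesis. In NKX1-2 wells 5 rose and 8 fell of 36, led by Prps2 (2.57), Me1 (1.42) and Fbp2 (1.35), and by Gfpt1 (-1.94), Gys1 (-1.36) and G6pc3 (-1.06). Prps2 stood at only 2.53 and 0 CPM in the control sums of the morula, and Eno2 at 2.13 and 0.766 CPM in those of the blastocyst. The sizes of their changes are uncertain. The medians of the list were -0.20 and -0.26. Of 20 genes of the citric acid cycle, 11 rose and 0 fell in control wells, and 12 rose and 0 fell in NKX1-2 wells, with medians of 0.77 and 0.66. Idh3a, a subunit of isocitrate dehydrogenase, rose by 2.22 in both, and Mdh1, the cytosolic malate dehydrogenase, by 2.14 and 2.13. In control wells they were followed by Aco1 (1.95) and in NKX1-2 wells by Idh1 (1.42).

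Of 24 regulators and targets of the responses to hypoxia and glucose, 4 rose and 4 fell of 16 tested in control wells, and 3 rose and 5 fell of 17 in NKX1-2 wells. Among all tested genes 20.1% rose and 21.6% fell in control wells, and 21.9% and 24.0% in NKX1-2 wells. Hif1a (4.64), the oxygen-regulated transcription factor, P4ha1 (1.96) and Egln1 (1.90) rose the most in control wells, and Myc (-3.22), Mlxipl (-2.41) and Ddit4 (-2.09) fell the most. The control sums of the morula held only 0.422 and 0.913 CPM of Hif1a, so the size of its rise is uncertain. In NKX1-2 wells Egln1 (2.45), P4ha1 (1.59) and Bnip3 (0.98) rose, and Mycl (-3.78), Myc (-3.77) and Ddit4 (-3.51) fell the most. Mycl stood at only 0.784 and 0 CPM in the NKX1-2 sums of the blastocyst, so the size of its fall is uncertain. With the NKX1-2 morpholino, 1 gene of each of 2 lists passed, of 38 tested sugar genes and 18 tested regulators and targets. Of all tested genes, 0.727% passed in the blastocyst and 2.90% on average. Tigar, which lowers fructose 2,6-bisphosphate, stood at 292 and 290 CPM in control and at 167 and 202 CPM in NKX1-2 wells of the blastocyst and fell, with differences of -0.66 there (SE 0.14, adjusted p = 0.0389) and -0.42 on average (SE 0.10, adjusted p = 0.0251). Ddit4, an inhibitor of mTORC1, went from 90.6 to 19.6 CPM and from 39.8 to 22.7 CPM and fell, with differences of -1.52 there (SE 0.28, adjusted p = 0.0222) and -0.84 on average (SE 0.17, adjusted p = 0.0151). Of the citric acid cycle, 0 of 20 genes passed a morpholino comparison with edgeR.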

How the data were processed

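The authors deposited whole-number counts per gene and well barcode for 4 plates. Per the submitters' processing notes TopHat2 and the builds GRCm38 and mm10 were used, without versions or roles, and per the labels' protocols poly(A) RNA libraries were made with TruSeq and sequenced on an Illumina HiSeq, while the samples' descriptions name 10x Genomics. Neither is tied to these counts, and if reads came from the 3' end the values per exon length would not compare genes. The counter, its use of strand and of molecular identifiers, and its treatment of reads that match several genes are not named there. Even wells had the control and odd wells the NKX1-2 morpholino, per the labels. Counts were summed per plate and morpholino, low genes were removed with filterByExpr, and 344 rows without a value in both morula plates, which include no member, were left out. Morpholino effects came from edgeR 4.0.16 (R 4.3.3), robust quasi-likelihood tests with TMM factors, on the 8 sums with plate as a block, and stage effects from separate fits of the 4 control or NKX1-2 sums, with Benjamini-Hochberg adjustment over all tested genes at 0.05. The scripts were tested on simulated data. Alternatives were DESeq2 1.42.0, limma 3.58.1 (voom), other filters, other choices of wells, copies added and each plate left out. Sequences shared between genes were found as 31-base stretches in GENCODE transcripts. The members, lists and tests were chosen with earlier results of these data known. The text names every member, and of each other pathway list every gene that passed a morpholino comparison and, by stage, the genes with the 3 largest changes in each direction among those that passed.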

Additional observations from a re-analysis of the deposited data

Results flagged for a closer look

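In 3 genes both morula plates moved one way and both blastocyst plates the other way with the NKX1-2 morpholino. Of the tested genes this pattern held for 2 of 30 members (6.67%) and for 1194 of all 10873, and the other gene, Pfkm, was below the filter on low counts. Slc16a1, the lactate and pyruvate transporter MCT1, had log2 differences of 0.39 and 0.34 on the morula plates and -1.03 and -0.80 on the blastocyst plates, so that the mean difference was -1.28 between the stages. In edgeR's quasi-likelihood test the difference between the stages was -1.37 (SE 0.47, adjusted p = 0.58) and did not pass. Galk1, the galactokinase, had -0.07 and -0.21 on the morula plates and 0.56 and 0.07 on the blastocyst plates, a difference of 0.45 between the stages, and the fitted value of 0.44 (SE 0.19, adjusted p = 0.731) did not pass. Pfkm, a phosphofructokinase, had -1.12 and -0.44 against 0.78 and 1.16, a difference of 1.75, at 0 to 3 counts per sum, and in the fit without a filter on low counts it did not pass (6.26, SE 3.83, adjusted p = 1).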

How the results depend on the processing

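Depth limits the low members most, since a sum with 0 counts allows 1.15 to 3.2 CPM. The number of members that passed was 20 and 17 for stage in NKX1-2 and control wells, and 2, 1, 0 and 0 for the morpholino on average, in the blastocyst, in the morula and between stages. DESeq2, which left several members without an adjusted p in both, gave 0 on average and 0 in the blastocyst, and limma voom 0 in the blastocyst. Xist wells gave 0 on average, 0 in the blastocyst and 9 for stage in control wells. Y wells gave 0, 0 and, for stage in NKX1-2 wells, 5. Without a filter on low counts 3 passed in the blastocyst and 1 in the morula, beside 0.865% and 0.610% of all genes. Plates of 1 stage alone gave 2 in the blastocyst and 4 in the morula, beside 1.49% and 8.03% of all genes, wells with at least 4000 genes gave 2 in the blastocyst, and deep wells thinned gave 1 in the morula. Rows with under 10% shared sequence, where fewer genes were tested, gave 10 and 10 for stage. Leaving out 1 plate gave 1 to 7 on average, 0 to 1 between stages, 1 to 7 in the blastocyst, 0 to 3 in the morula, and 10 to 16 and 13 to 19 for stage; the highest morpholino counts came without blastocyst plate 1, and a lone plate is assumed to vary like the others. Apart from the smaller gene and well sets and the left-out plates, the cause was not tested. No call of a member changed direction in any alternative run.

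The plate served as the block in the morpholino fits, and without the replicate block 2, 0, 1 and 0 members passed on average, between stages, in the blastocyst and in the morula. Plate numbers are shared across stages without a label that ties them, and with them as a replicate block 20 and 17 members passed for stage. Deviations of morula and blastocyst sums with the same plate number correlated at r = 0.03 in control and r = -0.002 in NKX1-2 wells, over all tested genes. Deviations of the control and NKX1-2 sums of the same plate correlated at r = 0.26 in the morula and r = -0.0007 in the blastocyst.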
